A study of Emberiza bruniceps with 4 samples.

Results

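Cytoplasmic ribosomal proteins were described here as the 28 flycatcher protein names that begin with 60S ribosomal protein, 60S acidic ribosomal protein or 40S ribosomal protein and carry any count, out of 11943 protein names in all. Of these, 19 belong to the large (60S) and 9 to the small (40S) subunit, and they rest on 67 assembled contigs, none of which matched another protein name equally well. One further name, L11, was matched but had no count in any library. The names found are not a full set of these proteins, since P0, P2, L4, L5, S2, S3, S14 and SA, among others, are missing. Shares and subunit counts below are those of the names found and not of all cytoplasmic ribosomal proteins. Members are called below by their L, S or P name.

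The birds were wild-caught red-headed buntings (Emberiza bruniceps), a songbird that migrates between seasons, and RNA came from tissue labelled as hypothalamus. They were either intact or castrated and were sampled in spring or in autumn, which makes 4 groups of 1 library, so no difference has a replicate check. The labels give no sex, age, interval since castration or number of birds behind a library. Each value below is therefore that of 1 library, and intervals cover counting error only.

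A ribosome joins a small subunit, which reads the messenger RNA, to a large subunit, which forms the peptide bond. Each subunit is built of ribosomal RNA and of many small proteins that are mostly present in a single copy, so their genes are expressed at high and matched levels in nearly every cell, neurons and glia included. In vertebrates most of their messenger RNAs start with a pyrimidine tract through which the mTOR kinase controls their translation.

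The libraries held 16840270 (spring castrated) to 26213011 (autumn castrated) estimated counts, of which 39.1% to 41.7% belonged to contigs with a flycatcher match. Levels are given as CPM, the count relative to a fixed matched total, scaled between libraries with TMM factors. The autumn castrated library stood apart in the length of its fragments. Its mean fragment length, as the effective lengths give it, was 212 bases, against 262 in spring castrated, 265 in autumn intact and 267 in spring intact birds. The castrated libraries also differed from the intact ones in markers of brain regions. Of the 4 telencephalon markers all were found, and they summed to 445 and 506 CPM in spring and autumn intact birds and to 11 and 10.4 CPM in spring and autumn castrated birds. The pituitary markers, 6 of 7 found, summed to 2.74 and 0.540 CPM in the intact libraries, with 3 of them at 0 in each, and to 883 and 499.7 CPM in the castrated ones. Markers of the hypothalamus, 4 of 5 found, summed to between 23.2 and 50.4 CPM, but they did not move together. Homeobox protein Nkx-2.1 stood at 22.3 and 17.8 CPM in the intact and at 2.29 and 1.29 CPM in the castrated libraries of spring and autumn. Steroidogenic factor 1 had 0.274 CPM in spring intact, was at 0 in autumn intact and had 16.2 and 3.27 CPM in spring and autumn castrated birds. In bulk tissue, fewer cells of a type and less RNA per cell cannot be told apart, and neither can castration and a different piece of tissue.

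Averaged over the libraries, 22 of the 28 members reached 1 CPM, 17 of the large and 5 of the small subunit. The same 22 reached that level over the 3 libraries other than autumn castrated, so none of them entered through its level in that library alone. The remaining 6 members held between 3 and 21 counts over all libraries. S12 (4 counts) and S17 (5 counts) had counts only in the autumn castrated library. S27 had 0, 0, 1 and 2 counts in intact spring, intact autumn, castrated spring and castrated autumn birds, and L32 had 1, 0, 2 and 3. S26 had 2, 3, 7 and 6 counts in that order and L27a had 4, 4, 6 and 7. Where no count was seen, up to 3 counts remain possible, which is 0.297 to 0.429 CPM depending on the library. Differences of these 6 members were not detectable at this depth.

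The 22 measured members were higher in the autumn castrated library than in each of the other 3, a position held by 28.4% of all 10559 names that averaged 1 CPM or more. Together the 28 members took 0.249% of matched counts in spring intact, 0.257% in autumn intact and 0.313% in spring castrated birds, against 0.488% in autumn castrated birds. The exact 95% intervals of these shares were 0.246% to 0.253%, 0.253% to 0.260%, 0.309% to 0.318% and 0.484% to 0.492%. The 2 intact libraries were thus almost level, spring castrated stood slightly above them and autumn castrated well above all. Summed over members, the deposited TPM (a share of transcripts, corrected for length) was 1137, 1073, 1342 and 2431 in the same order.

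**Figure D1:**
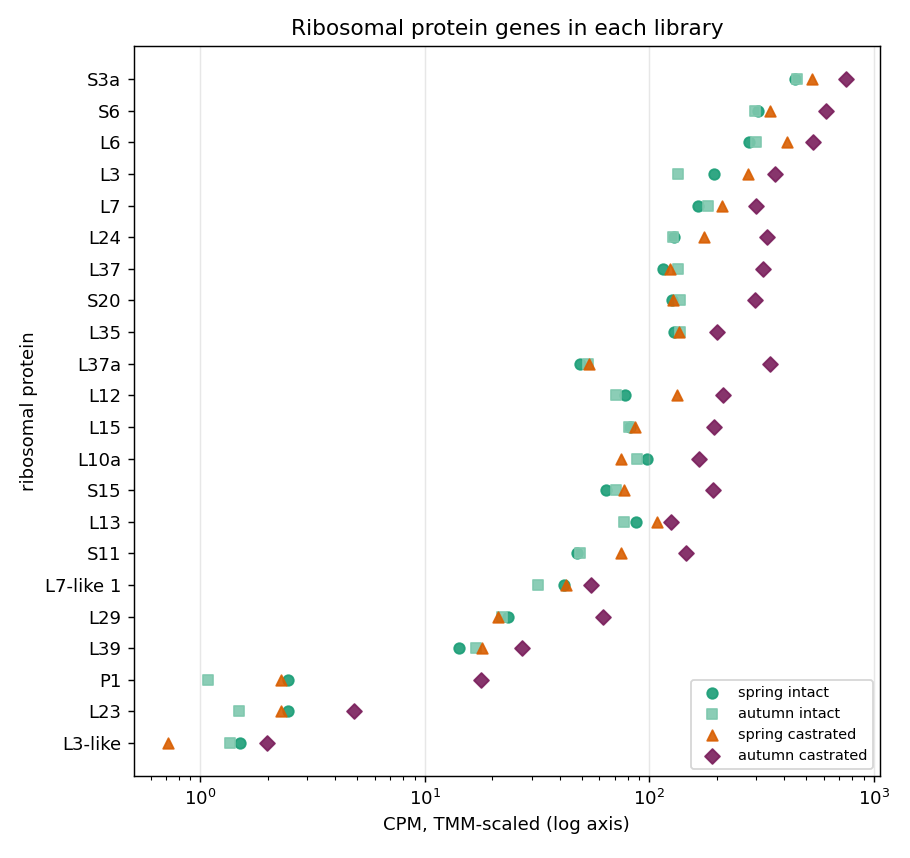
Level of each of the 22 measured ribosomal protein genes in the 4 libraries, as TMM-scaled CPM on a log axis, 1 symbol per library and genes ordered by mean CPM. The autumn castrated diamond is the rightmost symbol in every row, from L3-like at 1.98 CPM to S3a at 752 CPM.

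The first comparison is between castrated and intact birds in autumn. All 22 members were above 0 in log2 ratio, where 49.3% of all names were. The median of the members was 1.18, against -0.01 over all names. At least 2-fold higher in the castrated library were 13 of them, or 59.1%, where 12.3% of all names were that much higher. None was 2-fold lower, against 15.2% of all names, of which 27.6% differed 2-fold in either direction. The counting interval lay above 0 for 21 members and included 0 for L3-like, on 10 and 20 counts. Intervals clear of 0 were not counted over all names in any pair, so these numbers have no background share. The large subunit members had a median of 1.25 and the small subunit members one of 1.11, with 9 of 17 and 4 of 5 at least 2-fold higher. In the sum of all member counts the log2 ratio was 1.09 (1.07 to 1.12).

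In spring the castrated and intact libraries lay much closer. The median over members was 0.15, against 0.01 over all names, with 17 members above 0 and 5 below. Of all names 50.45% were above 0. The 19 members with a mean of at least 10 CPM had a median of 0.25, with 17 above 0 and 2 below. None of the 22 was 2-fold apart, where 8.61% of all names were 2-fold higher and 14.6% lower, 23.2% in all. Counting intervals lay above 0 for 10 members and below 0 for 1, L10a, a count not made over all names. The summed counts gave a log2 ratio of 0.29 (0.26 to 0.32).

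Between seasons, the intact libraries hardly differed in these genes. The median was 0.02, against 0.03 over all names. In spring 12 members were higher and 10 lower, where 54.2% of all names were higher, and 0 of 22 were 2-fold apart. Of all names, 2.6% were 2-fold higher in spring and 4.39% lower, 7% in all. The summed counts gave 0.01 (-0.02 to 0.04). In castrated birds all 22 members were lower in spring than in autumn, where 5243 of 10559 names were. Their counting intervals lay below 0 in each case, a count not made over all names. The median of the members was -0.94, against 0.00 over all names. Mean fragment length also differed between these libraries, at 262 bases in spring and 212 in autumn. At least 2-fold lower in spring were 9 of 22, where 5.42% of all names were, and 0 were higher, where 2.51% were, or 7.93% in either direction. Pairs with a library in common, as this pair and the autumn castration pair have the autumn castrated one, are not separate observations of it.

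The castration ratio in autumn exceeded that in spring for all 22 members, and for 52.5% of all names. The median difference was 0.94 on the log2 scale over members, against 0.03 over all names. For 10 of the 22 the autumn ratio exceeded the spring ratio by at least 1, where 8.45% of all names did. With 1 library per group this difference was not tested.

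**Figure D2:**
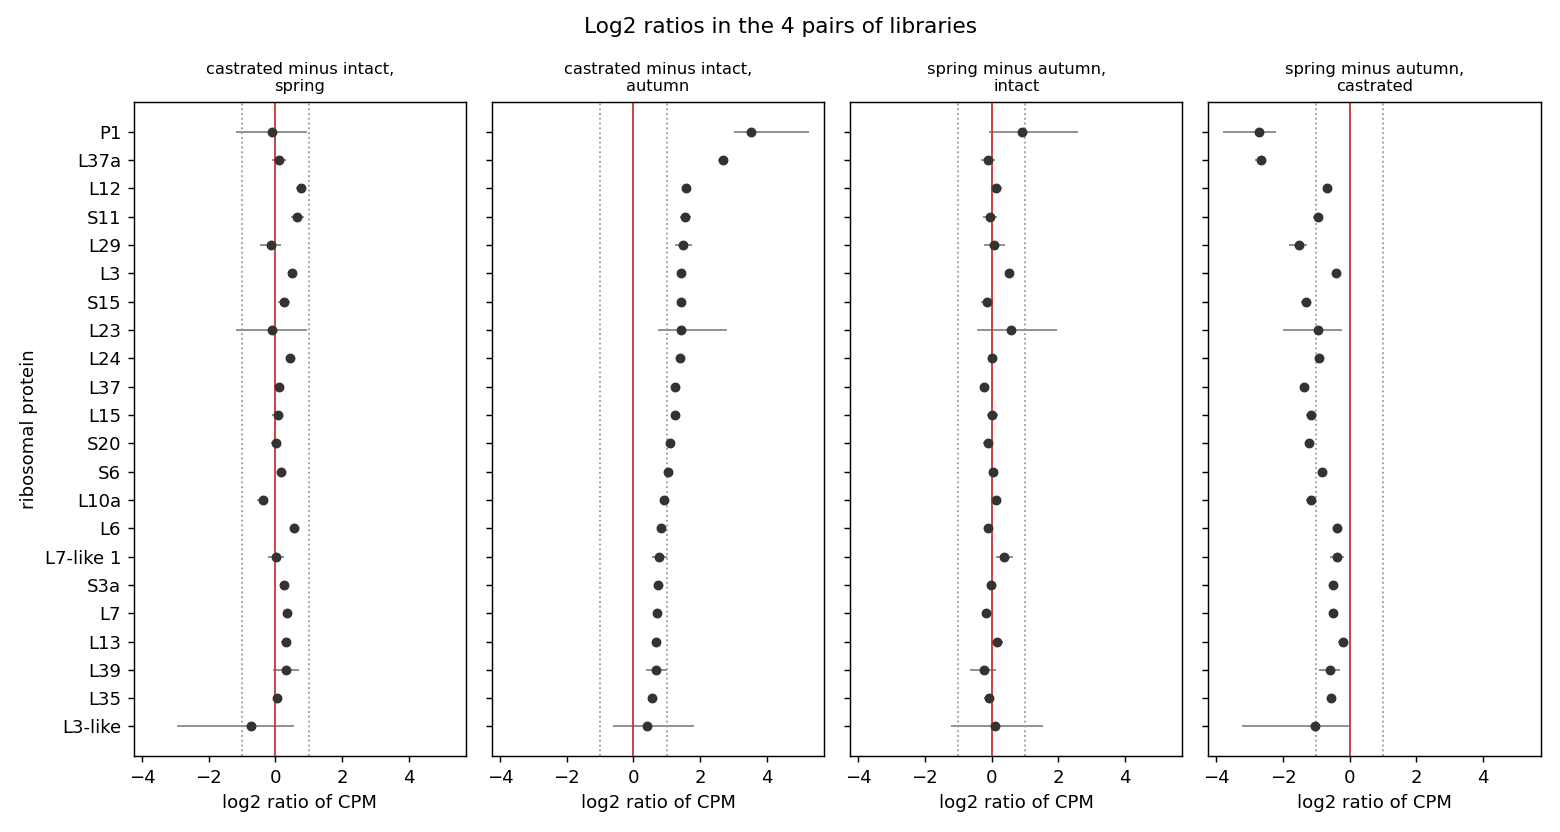
Log2 ratio of CPM for each of the 22 measured ribosomal protein genes in the 4 pairs of libraries, with exact 95% counting intervals as bars, the median of all names as a red line and 2-fold differences as dotted lines. In the autumn castration panel every point lies right of the red line, and in the panel for the intact seasons the points scatter around it.

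The elongation stalk of the large subunit recruits the elongation factors to the ribosome. P1, an acidic protein of that stalk, had 2.47 CPM in spring intact, 1.08 in autumn intact, 2.29 in spring castrated and 17.7 in autumn castrated birds. The autumn castrated level stood apart from the other 3. Its castration log2 ratio was 3.53 (3.03 to 5.27) in autumn, the highest of the members, and -0.09 (-1.17 to 0.95) in spring. P1 rests on 1 contig of 330 bases and on 8 to 179 counts per library. L12, which binds ribosomal RNA at the base of the stalk, had 78.2, 70.7, 133 and 213 CPM in the same order of libraries. Both castrated libraries thus lay above both intact ones. The spring castration ratio, 0.76 (0.61 to 0.92), was the highest of any member, and the autumn ratio was 1.58 (1.45 to 1.73). Another mobile stalk, which guides spent transfer RNA off the ribosome, is formed by L10a. Its levels were 97.7, 88.6, 74.9 and 167 CPM, lowest in spring castrated and highest in autumn castrated birds, with a castration ratio below 0 in spring, -0.38 (-0.55 to -0.22), and above 0 in autumn, 0.91 (0.78 to 1.05).

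Around the peptidyl transferase centre lies L3, one of the largest proteins of the subunit. Its levels were 194 CPM in spring intact, 134 in autumn intact, 275 in spring castrated and 365 in autumn castrated birds. L3 was the member that separated the intact seasons most among those with at least 10 CPM, at 0.53 (0.41 to 0.65), with the spring library higher. In castrated birds the season ratio had the other sign, -0.40 (-0.49 to -0.33). The castration ratio was 0.51 (0.41 to 0.61) in spring and 1.44 (1.34 to 1.54) in autumn. L3-like, a paralog known in mammals from striated muscle, stood at 0.716 to 1.98 CPM, and its counting interval included 0 in 3 of the 4 pairs.

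At the mouth of the exit tunnel, through which the new protein chain leaves, sit L35 and L39. L35 had 129 CPM in spring intact, 137 in autumn intact, 136 in spring castrated and 200.4 in autumn castrated birds. L39, one of the smallest ribosomal proteins, had 14.2, 16.9, 17.9 and 27 CPM in that order. These genes and L3-like had the lowest autumn castration ratios, 0.55 (0.44 to 0.66) for L35, 0.66 (0.37 to 1.0) for L39 and 0.42 (-0.61 to 1.81) for L3-like. For L35 and L39 the autumn castrated library was still the highest, and the other 3 libraries lay close together.

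L37 and L37a are small zinc-binding proteins of the large subunit. L37a had 49.3 CPM in spring intact, 53.1 in autumn intact and 53.7 in spring castrated birds, and 344 in autumn castrated birds. The first 3 values lay close together, while the last gave a log2 ratio of 2.69 (2.55 to 2.85) against autumn intact and of -2.67 (-2.84 to -2.53) for spring castrated against autumn castrated. Its share of all member counts was 1.99%, 2.15%, 1.77% and 6.53% in the 4 libraries. L37 stood at 115, 134, 124 and 322 CPM, where the spring castration ratio was 0.11 (-0.03 to 0.25) and the autumn one 1.26 (1.16 to 1.37). Its leading contig is 3647 bases long, and the protein match covers 8.3% of it, so most of the sequence counted for L37 lies outside the match.

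Among the remaining large subunit proteins, L6 and L7 had many counts and were, with L39, the members whose castration ratios differed least between the seasons. The leading contigs of L6 and L7, of 2356 and 2922 bases, are covered to 37.2% and 25.3% by the match. L6 had 279, 300, 409.8 and 538 CPM in intact spring, intact autumn, castrated spring and castrated autumn birds. L7 had 164, 183, 211 and 300 CPM in the same order. For both, the 2 castrated libraries were above the 2 intact ones, and the autumn ratio exceeded the spring ratio by 0.29 for L6 and 0.35 for L7. For L29, known as a small basic protein, they differed by 1.61. It stood at 23.4, 22, 21.2 and 62.0 CPM, with a spring ratio of -0.14 (-0.47 to 0.18) and an autumn ratio of 1.47 (1.24 to 1.75), and only the autumn castrated level lay apart from the others. Its leading contig of 1812 bases is covered to 12.4% by the match. L7-like 1, a paralog of L7, had 41.8, 32.0, 42.4 and 55.0 CPM, and the lowest level was that of autumn intact birds. L23, a protein of the face that meets the small subunit, was measured on 11 to 49 counts per library and stood at 2.47, 1.49, 2.29 and 4.85 CPM. Its leading contig of 617 bases, with 55.3% of its counts, is covered to 13.1% by the match. L13, L15 and L24, the last of which bridges to the small subunit, lay between these extremes, with autumn castration ratios of 0.69, 1.25 and 1.40 in summed counts (L13 turned to -0.35 in TPM) and spring ratios of 0.32, 0.07 and 0.44.

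In the small subunit 5 members were measured. S6, known as the target of the S6 kinases, stood at 305 CPM in spring intact, 295 in autumn intact, 345 in spring castrated and 610.0 in autumn castrated birds. Its castration ratio was 0.18 (0.09 to 0.26) in spring and 1.05 (0.98 to 1.12) in autumn. S3a, the member with the most counts, had 445, 454, 530.1 and 752 CPM, with ratios of 0.25 (0.18 to 0.32) and 0.73 (0.67 to 0.79). Its leading contig of 2707 bases is covered to 29.3% by the match. S3a made up 18% and 18.4% of the members' counts in intact spring and intact autumn birds and 17.5% in castrated spring birds, and a smaller share, 14.3%, in castrated autumn birds. S11, a protein of the subunit body, had 47.5, 49.3, 75.0 and 146 CPM and the second highest spring castration ratio of the members, 0.65 (0.46 to 0.86). Both of its castrated libraries were above both intact ones. S15 and S20, proteins of the subunit head, had autumn castration ratios of 1.43 (1.30 to 1.58) and 1.11 (1.01 to 1.22) and spring ratios of 0.27 (0.09 to 0.45) and 0.01 (-0.12 to 0.15).

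Levels can be compared between members only on the length-corrected scale. By TPM averaged over the libraries, L13 (197), L37a (177), L15 (165), L3 (126), L12 (116), S15 (111) and S6 (104) were the highest, the median over the 22 members was 49.6, and L3-like was lowest at 1.78. TPM was summed over the contigs of a name. The place of L13 rests largely on a contig of 271 bases, whose effective length was 65.3 to 79.9 bases, and does not show it to be the most abundant member. The order was not the same in each library. L37a had a TPM of 75.7, 83.2 and 85.0 in spring intact, autumn intact and spring castrated birds and of 465 in autumn castrated birds, where it led all members. P1 (14.3) and L37 (15.0) were among the low members, so TPM spanned a wide range over the measured members. The matches covered 8.3% to 97.0% of the leading contig, with a median of 38.95%, and the length correction uses the whole contig. The range of TPM is therefore not read as a range of abundance.

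Several members were spread over more than 1 contig, and the contigs of a member did not always move together. These counts are not scaled, and the autumn castrated library was the deepest. For L10a, the contig of 1199 bases had 671, 631, 423 and 448 estimated counts in intact spring, intact autumn, castrated spring and castrated autumn birds, and the contig of 732 bases had 36.5, 17.6, 96.4 and 1213. The gain in the autumn castrated library came from the shorter contig, and the longer one alone turned the direction of both pairs that hold this library. Its autumn castration ratio was -0.94, against 0.91 for the sum, and its season ratio in castrated birds was 0.40, against -1.15. For L13, the contig of 1040 bases had 284, 280, 400.0 and 980 counts and the contig of 271 bases had 353, 294, 359 and 283. Only the longer one was higher in autumn castrated birds, so the autumn castration ratio of L13 was 0.69 by summed counts, 1.34 on the longer contig and -0.35 by TPM, in which the short contig weighs more. For L37a, both contigs followed the same course, with 292, 339, 328 and 2861 counts on that of 404 bases and 67.9, 54.0, 47.1 and 613 on that of 838 bases. The contigs of 858 and 536 bases of L3 were both highest in autumn castrated birds, and the difference between the intact seasons lay on the first alone, with 1277 and 838 counts against 113 and 115. The program that made the estimates shares reads among contigs they match equally, so a split between similar contigs is itself an estimate.

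**Figure D3:**
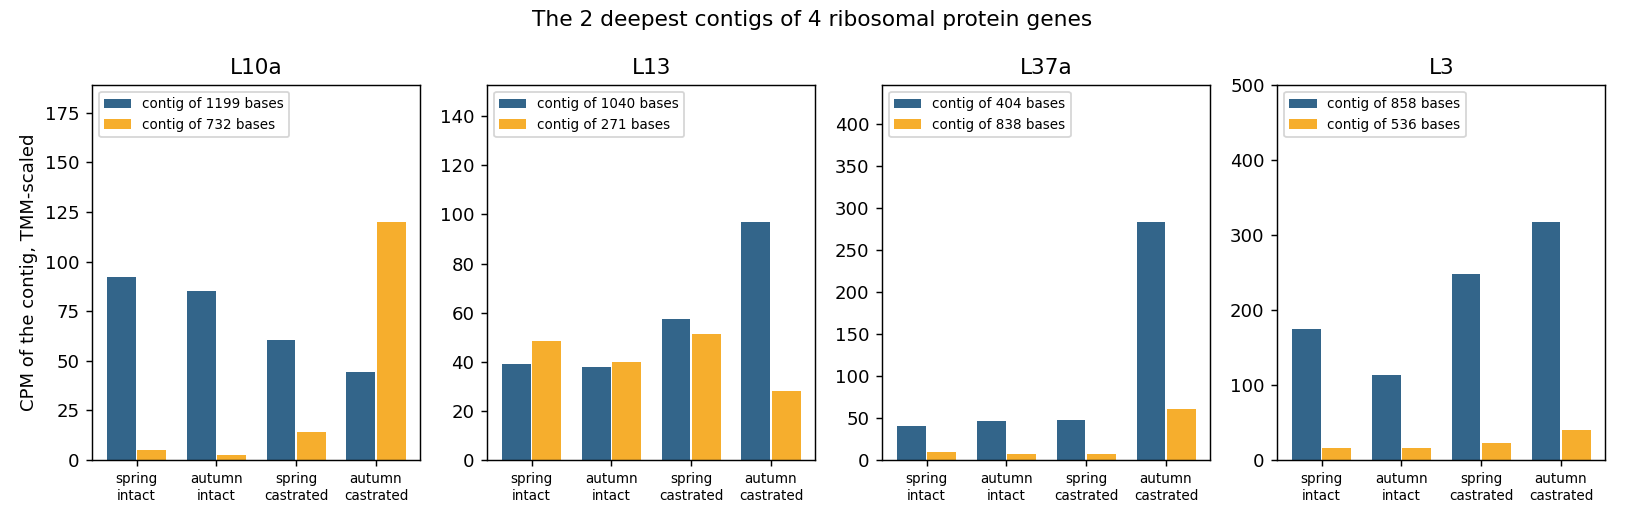
CPM of the 2 contigs with the most counts for L10a, L13, L37a and L3 in the 4 libraries, 1 bar per contig and library. In L10a and L13 1 contig is lower and the other higher in the autumn castrated library, whereas both contigs of L37a and of L3 are highest there.

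Since fragment length moved with the autumn castrated group, the ratios were set beside contig length. A contig of 500 bases had an effective length of 291 bases in the autumn castrated library and 241 to 246 in the others, and one of 2000 bases had 1789 against 1734 to 1739. The 4 members whose leading contig is shorter than 500 bases had a median autumn castration ratio of 1.97, against 0.39 for all 423 names in that class. The 8 members from 500 to 1000 bases stood at 1.43 against 0.32 for 1351 names, the 5 from 1000 to 2000 bases at 1.05 against 0.14 for 3387 names, and the 5 of 2000 bases or more at 0.84 against -0.20 for 5398 names. Members and all names thus both had lower ratios on longer contigs, and the members were above all names in each class. In these classes 3 of 4, 5 of 8, 3 of 5 and 2 of 5 members were 2-fold higher. Of all names 26.95%, 22.9%, 15.2% and 6.8% were, against 12.3% without regard to length. P1 and L37a, the 2 members with the largest ratios, are among the shortest, at 330 and 404 bases. L39, at 358 bases, had a ratio among the lowest, 0.66. Dividing each contig's counts by its effective length in that library moved the median from 1.18 to 1.06, and counting only contigs of at least 1000 bases, which left 12 members, gave 1.0. The part of fragment length in the remaining difference was not tested. In spring, where both libraries had similar fragments, the medians of the members in the 4 classes were 0.10, 0.17, 0.01 and 0.36, against 0.22, 0.20, 0.14 and -0.15 for all names. For spring against autumn in castrated birds, whose fragments differed, the members stood at -1.91, -0.81, -1.15 and -0.51. All names stood at -0.14, -0.10, -0.01 and 0.03. The part of fragment length in that pair was not tested either.

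**Figure D4:**
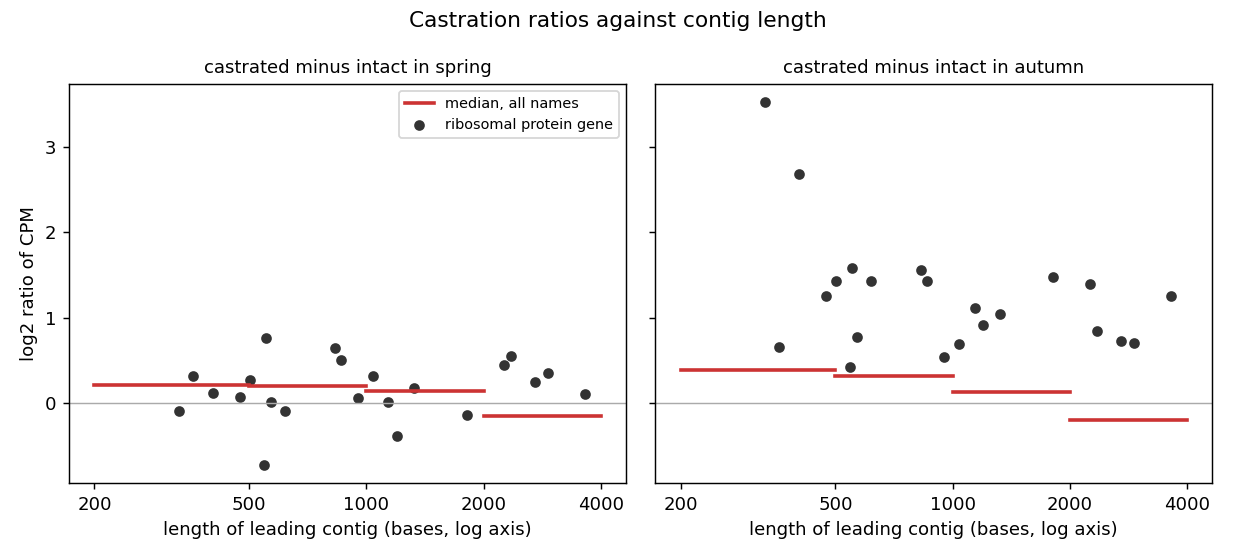
Log2 castration ratio of each of the 22 measured ribosomal protein genes against the length of its leading contig in bases on a log axis, in spring and in autumn, with red lines for the median of all names in 4 classes of length (the last line stands for all contigs of 2000 bases or more). In autumn all points of 2000 bases or more lie between 0.71 and 1.40, above the red line at -0.20.

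Other genes of translation were examined by lists of protein names, to be read against the shares and medians of all names given above. Elongation factor 1 delivers transfer RNA to the ribosome, and its subunits are known to share the pyrimidine tract of ribosomal protein messages. Of 5 measured elongation and release factors, 3 were at least 2-fold higher in autumn castrated than in autumn intact birds and 0 lower. Of all names 12.3% were higher and 15.2% lower. The median of the 5 was 1.05. Elongation factor 1-alpha 1 had 1447, 1417, 1640 and 3169 CPM in intact spring, intact autumn, castrated spring and castrated autumn birds. The level in autumn castrated birds stood apart from the other 3, with a log2 ratio of 1.16 (1.13 to 1.19) in autumn and 0.18 (0.14 to 0.22) in spring. Elongation factor 1-beta (1.2) and elongation factor 1-delta (1.05) had similar autumn ratios, with spring ratios of 0.53 and 0.58. The median of the elongation factors between the castrated seasons was -0.68.

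Initiation factors bring the subunits and the messenger together. Over 21 measured names the medians were 0.27 for castration in spring and 0.29 in autumn, 0.04 for season in intact and -0.01 in castrated birds. For castration 18 of the 21 were above 0 in spring and 16 in autumn, beside 50.45% and 49.3% of all names. The spring median was above that of the ribosomal protein genes (0.15) and the autumn median below theirs (1.18). In each castration pair 1 name was 2-fold higher, beside 8.61% of all names in spring and 12.3% in autumn. It was subunit G of factor 3, on 19 counts or fewer per library. In spring 1 name was 2-fold lower, beside 14.6% of all names. The 39 measured names of ribosome assembly and ribosomal RNA synthesis had medians of 0.19 and 0.26 for castration in spring and autumn, beside 0.01 and -0.01 over all names. In autumn 4 of the 39 were 2-fold higher and 0 lower, beside 12.3% and 15.2% of all names, so the number higher did not stand out. These were H/ACA ribonucleoprotein complex subunit 3-like at 2.91 (2.57 to 3.47) and subunit 2 at 1.38, which belong to the particles that modify ribosomal RNA, ribosomal RNA-processing protein 8 at 2.35 and pescadillo homolog at 1.10. H/ACA subunit 3-like stood at 7.40, 6.21, 6.87 and 49.8 CPM, a course like that of L37a, on a leading contig of 415 bases. Nucleolin and nucleophosmin, abundant proteins of the nucleolus, had autumn ratios of 0.26 and 0.51, and between the castrated seasons they stood at -0.03 and 0.01.

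For castration, the 18 names of mTOR and S6 kinase signalling had medians below 0, at -0.45 (spring) and -0.39 (autumn). In spring 6 names were 2-fold lower, beside 14.6% of all names, and in autumn 3 were, beside 15.2%. Those of spring were S6 kinases alpha-2, alpha-5, alpha-6 and beta-1, eukaryotic elongation factor 2 kinase and rapamycin-insensitive companion of mTOR. Those of autumn were S6 kinases alpha-2 and alpha-3 and rapamycin-insensitive companion of mTOR. Each season had 1 name 2-fold higher, beside 8.61% and 12.3% of all names. The leading contigs of these 18 names were long (median 3447.5 bases). All names with leading contigs of 2000 bases or more also had medians below 0, -0.15 (spring) and -0.20 (autumn). The part of contig length in the lower values was not tested. The mTOR kinase itself stood at 263, 183, 218 and 236 CPM, and ribosomal protein S6 kinase beta-1 at 29.3, 21.6, 14 and 15.5 CPM. Ribosomal protein S6 kinase beta-2 was higher in both castrated libraries, and its castration ratio was 1.29 in spring and 1.48 in autumn. Several of these names, among them the kinases of the alpha type, act on targets other than S6.

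The mitochondrial ribosome is a separate particle whose proteins are encoded by nuclear genes. Its 57 measured proteins had medians of 0.37 for castration in spring, 0.74 in autumn, -0.04 for season in intact and -0.41 in castrated birds. For castration in autumn 19 of 57 were at least 2-fold higher, beside 12.3% of all names, and 0 lower, beside 15.2%. The median leading contig of this list was 936 bases. Of all names with leading contigs from 500 to 1000 bases, 22.9% were 2-fold higher in that pair, with a median of 0.32. The part of contig length in the higher values was not tested. For castration in spring 3 were 2-fold higher and 0 lower, beside 8.61% and 14.6%. Between the castrated seasons 10 were 2-fold lower in spring and 1 higher, beside 5.42% and 2.51% of all names. The cytoplasmic members had a lower median castration ratio than the mitochondrial ones in spring and a higher one in autumn, a difference that was not tested. RACK1, listed as receptor of activated protein C kinase 1, is a cytoplasmic ribosomal protein that the naming rule does not reach. It had 49 counts in spring intact, 8 in autumn intact, 47 in spring castrated and 293 in autumn castrated birds on a leading contig of 237 bases, and the autumn libraries thus held its lowest and its highest count.

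**Figure D5:**
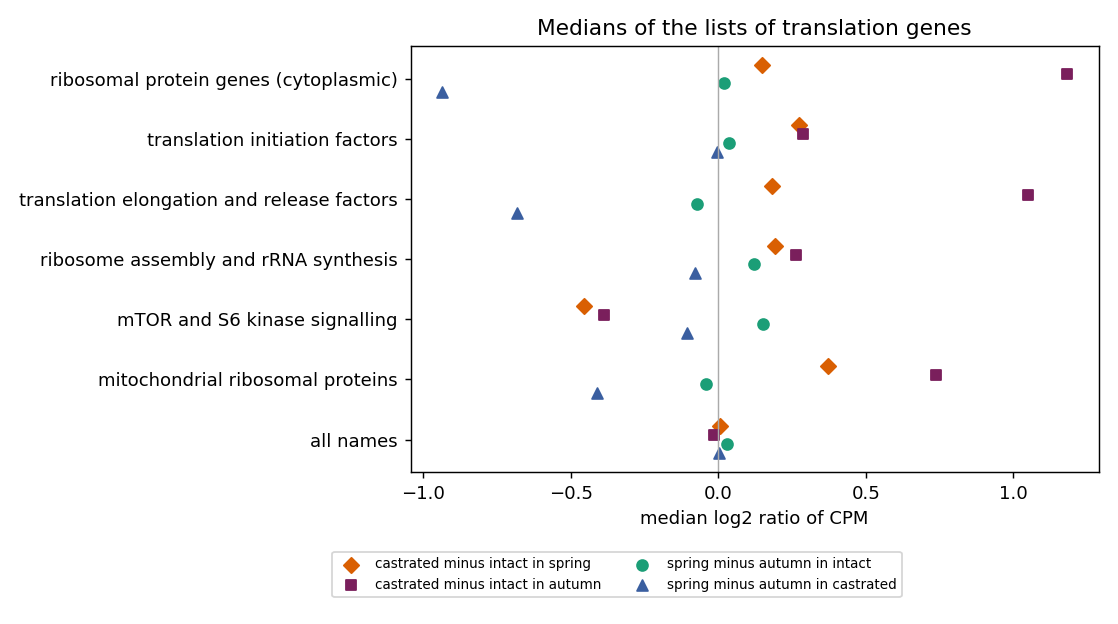
Median log2 ratio of CPM of the cytoplasmic ribosomal protein genes, of 5 other lists of translation genes and of all names, 1 symbol for each of the 4 pairs of libraries. The ribosomal protein genes and the elongation and release factors lie farthest right for castration in autumn (1.18 and 1.05) and farthest left for season in castrated birds (-0.94 and -0.68).

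Markers of cell types were read beside these values. The microglia markers, 4 of 6 found, summed to 43.1, 50.5, 74.1 and 92.7 CPM in intact spring, intact autumn, castrated spring and castrated autumn birds, the same order of libraries as the ribosomal protein share, although complement C1q subunit C was higher in spring castrated than in autumn castrated birds. The oligodendrocyte markers, 3 of 6 found, summed to 9174, 5314, 20204 and 17046 CPM, the hindbrain and midbrain markers, 4 of 4 found, to 3.56, 3.24, 368 and 230 CPM, and the pituitary markers to the values given above. In these 3 lists both castrated libraries were above both intact ones. Between the castrated libraries the pituitary markers went different ways. Prolactin (68.8 and 81.8 CPM in spring and autumn), somatotropin (55.1 and 185), pro-opiomelanocortin (89.3 and 196) and the thyrotropin beta subunit were higher in autumn, like the ribosomal protein genes. The glycoprotein hormone alpha chain (521 and 32.5) and the follitropin beta subunit were higher in spring and set the direction of the sum. Of the oligodendrocyte markers, the cyclic nucleotide phosphodiesterase was also higher in autumn, and the myelin proteins were higher in spring. The neuron markers, 5 of 8 found, summed to 5815 to 7266 CPM over markers that moved in opposite directions. Tubulin beta-3 stood at 6.57, 6.48, 16.3 and 75.5 CPM, highest in autumn castrated birds, while the neurofilament light and medium chains were higher and microtubule-associated protein 2 and synaptotagmin-1 lower in both castrated libraries. The astrocyte markers, 3 of 5 found, summed to 2481 to 3069 CPM, with excitatory amino acid transporter 2 at 903 and 844 CPM in the intact and 93.7 and 77.1 CPM in the castrated libraries. The part of these cell types in the ribosomal protein result was not tested. The choroid plexus markers, 2 of 3 found, summed to 540 CPM in spring intact, 8049 in autumn intact, 1610.5 in spring castrated and 2499 in autumn castrated birds. Haemoglobin, the marker of red blood cells, which keep their nucleus in birds, was found as 1 subunit at 0.411 CPM or less in each library.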

How the data were processed

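Hypothalamic RNA was sequenced from 4 libraries, 1 per group, as the labels state. Extraction used Tri reagent, per the labels' protocols. The submitters' processing notes name kallisto and Trimmomatic without a version. The authors deposited an estimated count and a TPM for each contig, its length and its effective length. The matches of contigs to flycatcher proteins that the authors deposited hold an e-value, a bit score (a score of the alignment), the identity of the match and how much of the contig it covers (both in percent). How the contigs were assembled and searched is not given in the sources used here.

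The match with the best bit score at an e-value of at most 1e-05 was kept for each contig, which gave 50994 contigs with counts. Estimated counts were summed per protein name and rounded to whole numbers. TMM factors (1.01 for spring intact, 1.04 for autumn intact, 1.03 for spring castrated and 0.925 for autumn castrated) scaled the matched totals of 7258655, 7122813, 6759993 and 10918845 counts. Log2 ratios were taken after adding 0.5 CPM and understate the change of low genes. Names with a mean of at least 1 CPM were compared, and 2-fold differences were called. Intervals are exact binomial 95% intervals of the count split, without the added CPM. Since no molecular identifiers mark PCR copies, reads are not independent and intervals and floors cover counting error only. Ratios and TMM factors were tested on simulated data.

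Members and lists were chosen with earlier results of these data known. Members named in the text are those with a known role or paralog, the 3 highest and 3 lowest in each pair, the 5 with the most counts, those with a 0 and the 3 with the largest and the 3 with the smallest difference between the castration ratios. L15, L24, S15, S20, S26 and L27a fall outside that rule and were named after their values were seen, as were the genes of other lists. Contigs have no genome coordinates here. Software was Python 3.11.15, numpy 2.4.6, pandas 2.3.3, scipy 1.17.1 and, for the alternatives, R 4.3.3 with edgeR 4.0.16 and DESeq2 1.42.0.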

Additional observations from a re-analysis of the deposited data

Results flagged for a closer look

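Some members had ratios of opposite sign in the 2 castration pairs or in the 2 season pairs, with both counting intervals clear of 0. L10a was at -0.38 for castrated against intact birds in spring and at 0.91 in autumn. For spring against autumn birds, the ratio of L3 was 0.53 among intact birds but -0.40 among castrated ones, that of L7-like 1 was 0.38 and -0.37, and that of L13 was 0.17 and -0.20. These differences were not tested, since each rests on 1 library per group, and the pairs of L10a, L13 and L7-like 1 rest on contigs that moved in different directions. For L7-like 1 the leading contig, of 567 bases, had 205, 146, 184 and 423 estimated counts. Its contig of 743 bases had 61.8, 72.7, 78.6 and 70.6. These counts are unscaled, in the order intact spring, intact autumn, castrated spring and castrated autumn, and the last library was the deepest.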

How the results depend on the processing

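Under 15 alternatives, 2 of them (contigs of at least 1000 bases and matches covering at least 50% of the contig) chosen after seeing the data, the median castration ratio of the members lay between 0.15 and 0.26 in spring and between 0.95 and 1.29 in autumn, and the median season ratio between -0.07 and 0.04 in intact and between -0.95 and -0.66 in castrated birds. With no filter on low values the autumn castration median was 0.952 over 28 members. Contigs of at least 1000 bases, with 12 members left, gave 7 members 2-fold apart for castration in autumn, 4 for season in castrated birds and a median of -0.655 there. Matches covering at least 50% of the contig, with 10 left, gave 6 and 4. Both leave fewer members, and some that remain changed value. The share of all names 2-fold apart under either setting is not given here, so these numbers have no background. On contigs of at least 1000 bases L35 keeps 1 contig with 42.1, 60.2, 42.7 and 0 counts, and is counted in both numbers as 2-fold apart in the other direction. Between the intact seasons 1 member, P1, was 2-fold apart with the deposited TPM or with 0.1 CPM added, and its main ratio of 0.91 lies close to that line on few counts. The number of members 2-fold apart between the intact seasons stayed at 0 in the random thinning of the reads that was run, and another draw could differ. L10a reversed for season in castrated birds to 0.40 on its leading contig and 0.422 on contigs of at least 1000 bases, and for castration in autumn to -0.94 and -0.88. L13 turned for castration in autumn to -0.35 in TPM and -0.54 with matches covering at least 50%, and for season in castrated birds to 0.745 and 0.82. L23 turned for season in castrated birds to 0.25 on its leading contig, and L3 for season in intact birds to -0.69 on contigs of at least 1000 bases. The member shares were 0.256%, 0.264%, 0.318% and 0.494% with e-values of at most 1e-20 and 70% identity, and 0.626%, 0.618%, 0.714% and 1.23% by the deposited TPM (each in the order intact spring, intact autumn, castrated spring, castrated autumn), a scale that weighs short contigs more. The autumn castrated library was not the highest for L13 in TPM and for L13 with matches covering at least 50%, for L10a and L23 on leading contigs, for L10a and L35 on contigs of at least 1000 bases, and for S26 and L27a without a filter. An edgeR quasi-likelihood fit took additive terms for gonadal state and season, with Benjamini-Hochberg adjustment over all names. Its 1 residual degree of freedom is the difference between the castration ratios of the seasons, a median of 0.94 over members. Its p-values therefore do not measure spread between birds. By gonadal state it called 5 of 22 members, all higher in castrated birds (S11, L12, L24, L3 and L6, lowest adjusted p = 0.0208). Among all names it called 2378 of 10559 in either direction, a share close to that of the members. By season it called 0 members and 0 of all names, with 2 members and 533 names at an unadjusted p under 0.05. No paired analysis was possible because each group holds 1 library. Depth limits P1, L23, L3-like and the 6 members under 1 CPM.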
